A study of Mus musculus with 108 samples.

Results

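ES-only sites were defined as distal stretches of the mouse genome from which cloned fragments were recovered in reporter-positive embryonic stem (ES) cells and in no reporter-positive cells of the 4 later stages. They numbered 1196 of 58916 distal sites (2.03%). To find them, distal fragments of the 95 sorted libraries that overlapped were joined into sites. A site was kept where a fragment positive for yellow fluorescent protein (YFP) was listed in at least 2 ES replicates and in no replicate of the later stages. Since the positive lists of all 5 stages chose the sites, the absence of positive fragments later is a property of the choice and not a result.

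The fragments were open chromatin released by the Tn5 transposase from cells of all 5 stages and cloned through the vector pDONR into the reporter vector pSKB, in front of the HSP68 minimal promoter and Venus-YFP. The host was HM-1, a single line of mouse ES cells with a defective Hprt gene. Reporters were placed at Hprt by homologous recombination, so every sorted library came from cells with the same reporter locus and promoter. The ES cells were differentiated in serum to FLK1+ hemangioblast (HB), hemogenic endothelium 1 (HE1; KIT+ TIE2+ CD41-), hemogenic endothelium 2 (HE2; KIT+ TIE2+ CD41+) and hematopoietic progenitors (HP; KIT+ TIE2- CD41+). Each stage was sorted in 5 replicates into Negative, Low, Medium and High YFP gates, with Medium and High collected as a single Medium/High gate in replicate 5. Nothing in the labels tied the replicates to separate transfections or differentiations, so p-values measure only the spread between these samples. The lists hold no RNA and no surface protein, so the stage of the cells was not checked against markers.

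Enhancers are stretches of DNA at which transcription factors bind and raise the activity of genes that can lie far away. In mouse ES cells, OCT4, SOX2, NANOG, ESRRB and the KLF factors bind many such elements and hold the cells in the pluripotent state. When the cells leave that state, elements bound by GATA, ETS and RUNX factors take over in the mesoderm, endothelium and blood lineages. A fragment that drives YFP from a foreign locus shows what its own sequence can do, apart from its native surroundings.

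The central 200 bp of 6 ES-only sites are printed because they show members with different neighbours and different motif matches. They were picked for their matches. Other named sites, such as those nearest Abr, Actg1, Spry2, Dnmt3a, Sox2 and Sall1, held none of the motifs searched. Sequence is from RefSeq GRCm38.p6, the assembly also known as mm10, plus strand, with matches to the motifs searched in capitals. The sites nearest Zfp42 and Fgf4 lay by genes active in ES cells, and the capitals mark a KLF motif and an ESRRB motif on the minus strand. The site nearest Esrrb held an ETS motif and that nearest Mycn a TEAD motif at 2 positions. The sites nearest Gm11361 and Cbfa2t3 were among the 10 with the most positive ES replicates, and held a GATA and a CTCF motif.
ES-only site nearest Zfp42, chr8:43320734-43320933: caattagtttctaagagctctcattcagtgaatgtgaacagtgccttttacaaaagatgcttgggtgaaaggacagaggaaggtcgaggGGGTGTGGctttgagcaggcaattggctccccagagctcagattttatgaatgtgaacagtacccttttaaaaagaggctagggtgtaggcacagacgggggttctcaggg
ES-only site nearest Fgf4, chr7:144851328-144851527: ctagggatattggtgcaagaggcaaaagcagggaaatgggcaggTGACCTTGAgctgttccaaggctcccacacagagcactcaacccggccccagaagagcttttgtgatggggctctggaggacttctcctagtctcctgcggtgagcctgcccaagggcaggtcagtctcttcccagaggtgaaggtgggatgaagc
ES-only site nearest Esrrb, chr12:86498993-86499192: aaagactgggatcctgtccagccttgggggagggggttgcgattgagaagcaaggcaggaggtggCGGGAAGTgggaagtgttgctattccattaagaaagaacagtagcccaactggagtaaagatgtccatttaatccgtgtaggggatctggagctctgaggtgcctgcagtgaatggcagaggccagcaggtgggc
ES-only site nearest Mycn, chr12:12693958-12694157: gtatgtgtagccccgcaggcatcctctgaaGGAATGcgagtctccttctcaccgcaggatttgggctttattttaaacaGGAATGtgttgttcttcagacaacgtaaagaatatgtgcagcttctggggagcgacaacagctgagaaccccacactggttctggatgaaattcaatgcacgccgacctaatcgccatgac
ES-only site nearest Gm11361, chr13:28371008-28371207: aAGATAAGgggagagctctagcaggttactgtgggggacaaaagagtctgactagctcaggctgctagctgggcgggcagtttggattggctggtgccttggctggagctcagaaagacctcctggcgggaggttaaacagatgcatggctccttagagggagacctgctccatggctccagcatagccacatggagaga
ES-only site nearest Cbfa2t3, chr8:122709772-122709971: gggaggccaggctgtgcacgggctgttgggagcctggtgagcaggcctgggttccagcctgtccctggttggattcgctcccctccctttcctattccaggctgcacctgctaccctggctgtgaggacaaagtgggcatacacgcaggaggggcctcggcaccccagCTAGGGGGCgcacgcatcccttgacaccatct

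The 95 lists held 126 to 45186 distal fragments each, and 715002 in all. ES lists held 220 to 14336 fragments in 19 libraries. Fragments were listed once per library without read numbers, so a site seen in few libraries may have been missed in the short ones. Of the lists, 4 from HE1 shared 47.3% to 80.8% of their distal fragments with a library of another gate and replicate. The best such share of the other 91 libraries had a median of 13.9% and reached 55.5%, and that of ES libraries reached 32.2%. Leaving the 4 HE1 libraries out gave 1211 ES-only sites.

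Most ES-only sites rested on few observations. Of the 1196 sites, 1043 were positive in 2 ES replicates, 141 in 3, 12 in 4 and 0 in 5. Replicates 1 and 2, which had the longest lists, were both positive at 849 sites (71.0%). By replicate, 1004 sites were positive in replicate 1, 1022 in replicate 2, 414 in replicate 3, 78 in replicate 4 and 39 in replicate 5. A site had 2 to 16 ES-positive listings, with a median of 3. It had 1 to 12 distinct positive fragments, with a median of 2, and at 512 sites (42.8%) all listings were of 1 fragment. At 787 sites (65.8%) an identical fragment was listed in at least 2 replicates.

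By gate, 657 sites were listed in Low and in a higher gate, 501 in higher gates alone and 38 in Low alone. The High or Medium/High gate listed 984 of them. ES-only sites were narrow, with a median width of 241 bp (quartiles 182 and 348.5 bp, range 70 to 892 bp). HB-only sites, chosen by the same rule with HB in place of ES (1357 sites), had a median of 271 bp, all sites 297 bp and the 6298 sites positive at all 5 stages 683 bp. Merging more fragments can widen a site, and the part of listing number in these widths was not tested.

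Values just inside and just outside the rule were as follows. The 3671 sites positive in 1 ES replicate alone had 1 to 7 listings and a median of 1, against a median of 3 inside. Another 962 sites were positive in at least 2 ES replicates and at exactly 1 later stage, which was HB at 693, HE1 at 155, HE2 at 45 and HP at 69. ES-only sites made up 7.04% of the 16999 sites with any positive ES fragment and 12.9% of the 9295 positive in at least 2 ES replicates.

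The lists of YFP-negative cells were not used by the rule, although they came from the same sorted cultures as the positive lists. ES-only sites were frequent in ES Negative lists and nearly missing from those of later stages. The choice had a part in this, since a later Negative fragment that overlapped a later positive one could not lie at an ES-only site. Of the 60347 HE1 Negative fragments, for example, 12138 were not identical to an HE1 positive fragment. All sites, given beside, include the sites of the later lists. Of the 1196 sites, 469 (39.2%) were listed in at least 1 ES Negative library, against 17.6% of all sites. In HB Negative libraries 34 (2.84%) were listed, against 19.6% of all sites. In HE1 the count was 2 (0.167%), against 36.8% of all sites. In HE2 it was 5 (0.418%), against 23.4%, and in HP 4 (0.334%), against 21.8%. Together 44 ES-only sites were listed in any later Negative library, against 54.8% of all sites, and 701 were in no Negative library at all. Of those listed in ES Negative cells, 401 were in 1 library, 58 in 2 and 10 in 3.

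HB-only sites mirrored this, with 35.8% listed in HB Negative libraries, 4.42% in those of ES and 0.295% in those of HE1. Sites positive at all 5 stages were listed in the Negative libraries of every stage at 67.3% to 87.9%. The sources used here do not say whether the authors' filter on open chromatin peaks was run stage by stage. Such a filter would act on positive and Negative lists alike, and it cannot be told apart from a difference in reporter activity.

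For a comparison over replicates, the share of each Negative list at ES-only sites was taken after fragments identical to a positive fragment of the same stage had been left out. Later Negative fragments that overlapped a later positive one without being identical stayed in the total. By the choice they could not lie at these sites, so the difference from ES is in part set by the rule. On the ES side, each site had to hold positive ES fragments from the same cultures, and only identical fragments were left out. In ES the share was 1.47% in replicate 1 (73 of 4958 fragments), 1.44% in replicate 2, 1.56% in replicate 3, 2.34% in replicate 4 and 0.794% in replicate 5. The last value rested on 1 of 126 fragments (95% Wilson interval 0.140% to 4.36%). In HB it was 0.512%, 0.162%, 0.0906%, 0% and 0.398%. All ES values lay above all HB values. At the last 3 stages no library passed 0.0480%, and 2 of 12138 fragments in HE1, 7 of 16067 in HE2 and 4 of 15399 in HP lay at these sites.

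**Figure D1:**
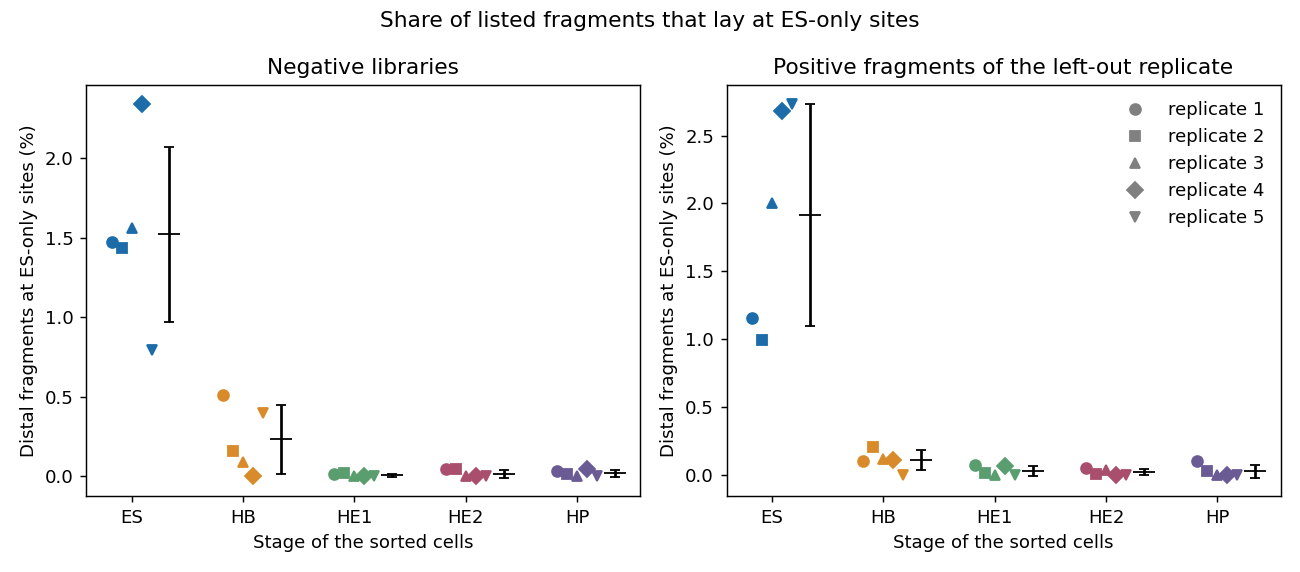
Percent of listed distal fragments that lay at ES-only sites (vertical axes) by stage (horizontal axes), in Negative libraries on the left and in positive fragments of a replicate that did not choose the sites on the right. Symbols are replicates and black marks the mean ± SD of 5; the ES values, 0.794% to 2.34% on the left and 0.998% to 2.74% on the right, lie above those of every later stage.

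The mean was 1.52% ± 0.55 in ES and 0.233% ± 0.215 in HB (SD, n = 5 replicates each), which differed in the exact two-sided permutation test with p = 0.00794, or 0.00794 after adjustment over 4 stages. The test cannot separate the part set by the rule from a difference between stages. The ES mean was 1.52 percentage points above that of HE1, 1.504 above that of HE2 and 1.503 above that of HP, with the same p, the smallest that 5 against 5 replicates can give. The result rested on replicates 1 and 2. Without replicate 1 the rule left 409 sites, the ES share fell 0.11 points below that of HB, and no stage passed the threshold (exact permutation test, adjusted p = 0.514 for each). Without replicate 2 it left 376 sites and differences of 0.44 to 0.53 points (exact permutation test, adjusted p = 0.143). With all Negative fragments kept, the differences were 2.87 to 2.99 points, and with at least 3 positive ES replicates asked for they were 0.17 to 0.18 points and missed the threshold (exact permutation test, adjusted p = 0.167). The short Negative lists of replicates 3 to 5 held 0 such fragments in 8 of 9 cases among the last 3 stages. By counting error alone (3 fragments of the total) these allowed shares of up to 0.716% to 3.19%, a range that takes in the ES shares.

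The positive lists could be compared only where a replicate had not chosen the sites. The rule was therefore run in 4 replicates and the share of the left-out replicate's positive fragments at those sites was taken. The sites chosen numbered 409, 376, 934, 1147 and 1173 with replicates 1 to 5 left out in turn. In ES the share was 1.15% in replicate 1 (279 of 24207 fragments), 0.998% in replicate 2, 2.00% in replicate 3, 2.68% in replicate 4 and 2.74% in replicate 5. In HB it was 0.106%, 0.205%, 0.117%, 0.111% and 0%. Across the last 3 stages it ran from 0% to 0.105%. Every ES value lay above every value of the later stages.

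The ES mean of the held-out share was 1.91% ± 0.82. The HB mean was 0.108% ± 0.073, that of HE1 0.0306% ± 0.0346, that of HE2 0.0193% ± 0.0232 and that of HP 0.0264% ± 0.0453 (SD, n = 5 throughout). ES was higher than each later stage in 5 of 5 replicates (p = 0.00794 and, adjusted, 0.00794 for each, exact two-sided permutation test). All stages of a replicate were measured on the same held-out sites, and the 5 site lists overlapped, so the values were not independent as that test assumes. Paired by replicate, each difference had p = 0.0625 (exact sign flips), above the threshold and the smallest that 5 pairs can give. The differences were 1.81, 1.88, 1.89 and 1.89 percentage points, and 0.386, 0.387, 0.389 and 0.388 points where at least 3 positive ES replicates were asked for, with the same adjusted p in the exact test. With fragments identical to one of another replicate left out they were 1.97 to 2.06 points, with the same adjusted p in the exact test. Without replicate 2, the difference from HB was 0.86 points and missed the threshold (exact permutation test, adjusted p = 0.0571). Leaving out replicate 1 or replicate 2 reduced every difference by more than 1.5 times, to between 0.73 and 0.96 points, and leaving out replicate 3 brought them to between 0.97 and 1.03 points.

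Within ES, the share of fragments at ES-only sites was compared between the Low and the high gate. The Low lists of replicates 1 to 5 had 3.09%, 5.44%, 4.94%, 7.58% and 7.67% of their distal fragments at these sites. The High lists of replicates 1 to 4 had 5.53%, 5.75%, 4.86% and 8.44%, and the Medium/High list of replicate 5 had 6.09%. Groups overlapped, with means of 6.14% ± 1.36 in the high gate and 5.75% ± 1.93 in Low (SD, n = 5). Both gates chose the sites, and longer lists chose more of them, so these shares are a description. With the sites chosen in the other 4 ES replicates, a choice made after seeing the data, the Low lists of replicates 1 to 5 had 0.648%, 0.984%, 1.82%, 3.79% and 3.32%. The high lists had 1.30%, 1.20%, 1.96%, 3.09% and 2.87%. The high gate was above Low in 3 of 5 replicates, and the groups overlapped. The held-out means were 2.08% ± 0.87 and 2.11% ± 1.40 (SD, n = 5), a difference of -0.029 points that did not exceed the spread (exact two-sided permutation test, p = 0.960). Both gates of a replicate were measured on the same held-out sites, so this spread takes in that between site lists. A paired test of these held-out shares was not run.

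**Figure D2:**
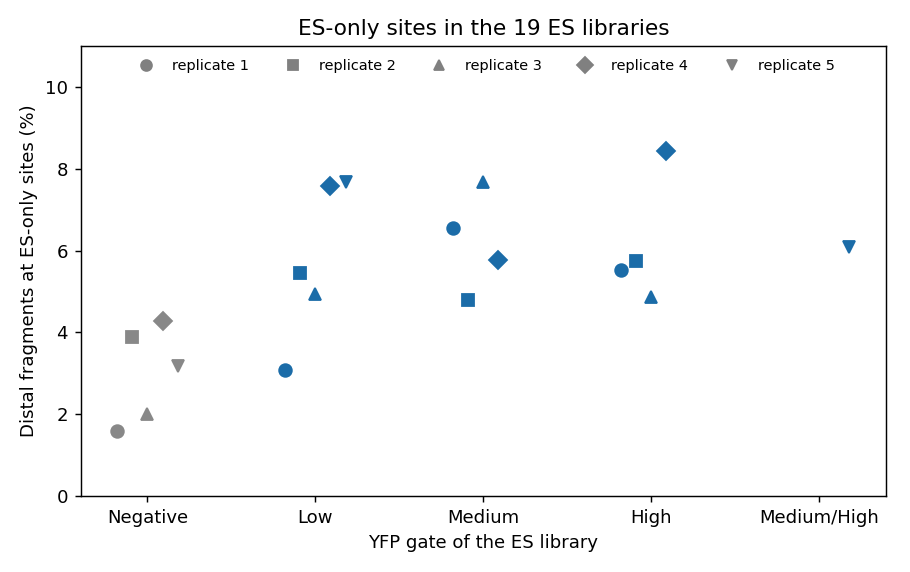
Percent of the distal fragments of each ES library that lay at ES-only sites (vertical axis), by YFP gate (horizontal axis), 1 symbol per replicate. The positive gates in blue, which chose the sites, span 3.09% to 8.44% and overlap each other, and the Negative gate in grey spans 1.60% to 4.28%.

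The full ES Negative lists had 1.60%, 3.90%, 2.02%, 4.28% and 3.18% of their fragments at ES-only sites in replicates 1 to 5. Their comparison with the positive lists again needed held-out sites, and it was added after the data were seen. The positive share of 1.91% ± 0.82 then stood against 1.71% ± 0.93 in Negative lists (SD, n = 5). It was higher in 4 of 5 replicates, with a difference of 0.20 points that did not exceed the spread (exact two-sided permutation test, p = 0.738). Both lists of a replicate were measured on the same held-out sites, and paired by replicate the difference had p = 0.25 (exact sign flips). The miss does not show that positive and Negative ES cells carried these sites equally. It turned to -0.06 points without replicate 3 (exact permutation test, p = 0.8286).

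The plasmid lists showed what had been cloned before any cell was sorted. As a set, ES-only sites were present in the material of every stage, though not each site in each list, and densest in that of ES. In pDONR, 3.24% of the ES fragments on distal sites lay at ES-only sites, and the HB list had 1.26%, the HE1 list 0.706%, the HE2 list 0.700% and the HP list 0.766%. In pSKB the shares were 3.23%, 1.30%, 0.758%, 0.764% and 0.775%. There was 1 list per vector and stage, so these differences have no replicate check. Of the 1196 sites, 99.7% were covered in the ES pDONR list and 86.5% to 93.6% in those of later stages. In pSKB the figures were 97.5% and 53.5% to 77.3%. For all sites they were 89.7% and 92.3% to 97.4% in pDONR, and 74.5% and 71.2% to 81.2% in pSKB. Only 6.10% of ES-only sites had no pSKB fragment from any later stage, against 2.07% of all sites.

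Density, the fragments at a site per 1000000 fragments of that list on distal sites, was highest in ES pDONR at 1060 ES-only sites (88.6%), against 28.7% of all sites. In pSKB it was highest in ES at 954 (79.8%), against 27.1% of all sites, and in both vectors at 921 (77.0%). HB-only sites were densest in HB pDONR at 61.8%. Of the 8099 sites positive in at least 2 ES replicates and also later, 41.4% were densest in ES pDONR. The 3671 sites positive in 1 ES replicate alone, which the rule left out, were densest in ES pDONR at 87.9%. The median ES-only site held 19.5 pDONR fragments from ES, 6 from HB, 5 from HE1, 3 from HE2 and 4 from HP. ES density was over 2 times that of every later stage at 62.9% of ES-only sites and at 10.8% of all sites.

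**Figure D3:**
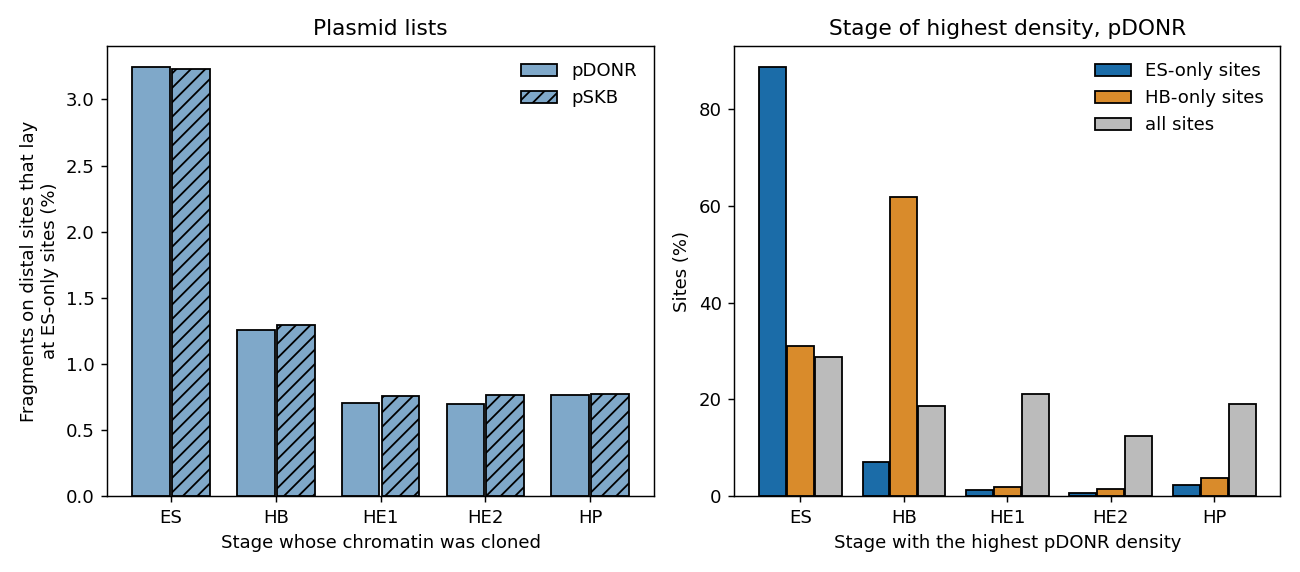
Left, percent of plasmid fragments on distal sites that lay at ES-only sites, by the stage whose chromatin was cloned, with 1 bar per list (3.24% and 3.23% in ES, 0.700% to 1.30% later). Right, percent of ES-only, HB-only and all sites whose pDONR density was highest in each stage, which was ES for 88.6% of ES-only sites.

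The fragments recovered from ES cells were not only those cloned from ES chromatin. Of the 2271 distinct positive ES fragments at ES-only sites, 90.4% were identical to a fragment of some plasmid list or of a control list from HM-1 cells without a reporter. Of all 50392 positive ES fragments, 83.8% were identical to one of some plasmid list. The control lists 1, 2 and 3 matched 0, 10 and 5 of the 2271, so these shares do not count quite the same matches. An identical fragment was found in the pDONR list of ES for 33.5%, of HE1 for 21.1%, of HE2 for 20.6%, of HB for 7.18% and of HP for 4.18%. For all positive ES fragments these shares were 17.6%, 28.5%, 26.95%, 8.56% and 7.44%. ES-only sites thus drew more often on the ES list, while material from later stages also reached positive ES cells. Fragments at ES-only sites and all positive ES fragments had the same median length of 196 bp.

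Motifs were counted in the central 200 bp of each site on both strands, as a description with no test. The OCT-SOX core and the octamer overlap where both stand in 1 composite element. ESRRB, an orphan nuclear receptor of the pluripotency network, has the motif TCAAGGTCA, found in 1.34% of ES-only sites, against 0.429% of all sites and 0.295% of HB-only sites. The octamer ATGCAAAT, read by POU factors such as OCT4, was found in 2.09%, against 1.09% of all sites. The OCT-SOX core TTGTNATGC, where OCT4 and SOX2 bind side by side, was in 1.09%, against 0.614%. The SOX motif AACAATG was in 3.18%, against 3.96%. The KLF motif GGGNGTGG was in 13.0%, against 8.93%, and at 12.5% of HB-only sites. The TEAD motif GGAATG was in 15.8%, against 13.8%. An octamer, OCT-SOX, SOX or ESRRB match was found in 7.19% of ES-only sites, against 5.96% of all sites and 3.83% of HB-only sites.

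The GATA, AP-1, RUNX, ETS and CTCF motifs were rarer in ES-only sites than in all sites, but the order against other sets differed between motifs. The GATA motif AGATAAG was in 1.51% of ES-only sites, against 5.42% of all sites and 5.68% of HB-only sites. The AP-1 motif TGANTCA, bound by FOS and JUN, was in 9.20%, against 11.6% of all sites, 8.34% of the sites positive at all 5 stages and 5.38% of HB-only sites. The RUNX motif TGTGGTT was in 5.27%, against 5.99% of all sites, 4.20% of HB-only sites and 3.95% of the sites positive at all 5 stages. The ETS motif CNGGAAGT was in 5.27%, against 7.26% of all sites, 5.75% of HB-only sites and 5.45% of the sites positive at all 5 stages. The CTCF motif CNAGNGGGC, for the factor that sets chromatin domain borders, was in 4.10%, against 5.31% of all sites and 12.2% of the sites positive at all 5 stages.

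**Figure D4:**
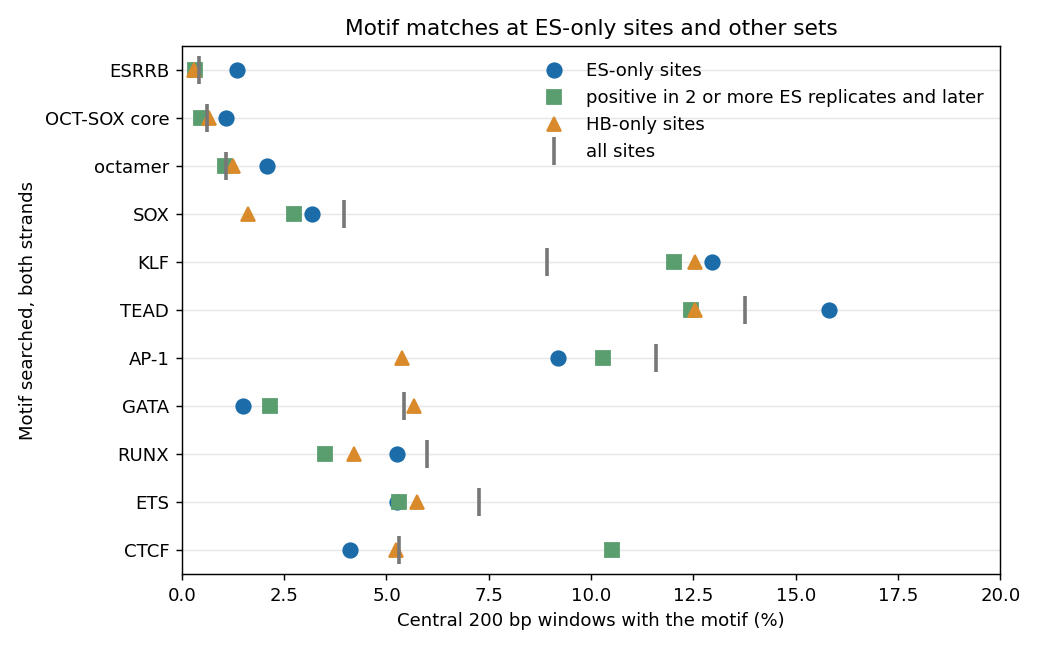
Percent of central 200 bp windows with each motif (horizontal axis) for ES-only sites, sites positive in ES and later, HB-only sites and all sites. Of the sets plotted, ES-only sites stand highest for ESRRB (1.34% against 0.429% of all sites) and lowest for GATA (1.51% against 5.42%).

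The 3671 sites positive in 1 ES replicate alone had motif shares near those of the ES-only sites, with an octamer at 2.32%, an OCT-SOX core at 1.72%, an ESRRB match at 0.926%, a GATA match at 1.88% and a CTCF match at 3.27%. The octamer and the OCT-SOX core were thus more frequent there than in ES-only sites. The 8099 sites positive in at least 2 ES replicates and also later had an octamer at 1.05%, an OCT-SOX core at 0.457%, an ESRRB match at 0.321%, a GATA match at 2.16%, a RUNX match at 3.49% and a CTCF match at 10.5%. Within the ES-only sites, the 153 positive in 3 or 4 replicates had an octamer at 2.61% and no ESRRB match, and the 1043 positive in 2 replicates had 2.01% and 1.53%. Of the 469 sites in an ES Negative library, 9 had an OCT-SOX core (1.92%), against 4 of the 727 in none (0.550%). The octamer (1.71% against 2.34%) and the SOX motif (2.35% against 3.71%) went the other way, and ESRRB was at 1.49% against 1.24%.

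ES-only sites were spread over the genome. They lay in introns at 40.8% (all sites 46.3%), between genes at 41.8% (39.8%), in coding exons at 10.6% (7.08%) and in other exons at 6.77% (6.82%), by GENCODE vM21. The median distance to the nearest start of a coding transcript was 14830.5 bp, against 16626 bp for all sites. Although all were in the authors' distal lists, 8.36% lay within 1500 bp of a GENCODE coding transcript start, against 7.09% of all sites. GC content was 52.6% on average, against 51.1%. In 8.78% of windows most bases were repeats, against 4.98% of all sites, 3.32% of HB-only sites and 1.87% of sites positive at all 5 stages.

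An ES-only site lay within 100 kb of a start for 13 of 40 genes of pluripotency and the early embryo, 3 of 24 genes of mesoderm and endoderm, 6 of 24 endothelial genes and 9 of 24 blood genes. These gene counts were not set against those of another set of sites, and the lists differ in length. Of the ES-only sites, 16 (1.34%) lay within 100 kb of a gene of the pluripotency list, against 0.720% of all sites. For mesoderm and endoderm genes it was 4 sites (0.334%, all sites 0.467%), for endothelial genes 6 (0.502%, 0.633%) and for blood genes 12 (1.00%, 0.582%). For HB-only sites the share near pluripotency genes was 1.33%. By nearest coding start, 11 ES-only sites (0.920%) belonged to pluripotency genes, against 0.538% of all sites, and 4 (0.334%) belonged to each of the mesoderm and endoderm, endothelial and blood lists, against 0.309%, 0.384% and 0.406% of all sites.

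The ES-only site nearest Zfp42, which encodes the ES cell marker REX1, lay 13854 bp upstream of the start between genes (chr8:43320688-43320980). It was positive in Medium replicate 1 and Low replicate 3 with 2 distinct fragments, and was in no Negative library. Its pDONR lists held 45 fragments from ES, 1 each from HB, HE1 and HP and 0 from HE2. The site nearest Fgf4, the growth factor that pushes ES cells out of pluripotency, lay 4061 bp downstream of the start (chr7:144851300-144851556), in an intron by the annotation. The same fragment was positive in High replicate 1 and Medium replicate 2. Its pDONR lists held 23 fragments from ES, 17 from HB and 3 to 5 from each later stage.

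The site nearest Esrrb lay 5316 bp upstream of the nearest start, in an intron (chr12:86498970-86499216), with 17 pDONR fragments from ES and 0 to 4 from the later stages. It was positive in High replicate 2 and Medium replicate 1. The site nearest Tcl1, a coactivator of AKT, lay 36344 bp upstream (chr12:105259023-105259251) and was positive in Low replicates 1 and 2, with 30 fragments from ES and 1 to 11 from later stages. The site nearest Sox2 was 123538 bp downstream (chr3:34773743-34774143), positive in Medium replicates 1 and 3, with 30 fragments from ES and 7 to 11 later. That nearest Mycn was 246558 bp away (chr12:12693934-12694182), beyond the distance used for the list, with 14 and 1 to 5 fragments. The sites nearest Tet2 and Jarid2, for a DNA demethylase and a Polycomb cofactor, had 15 and 21 fragments from ES and 0 to 4 and 2 to 13 from later stages.

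The site nearest Dnmt3a, a DNA methyltransferase, differed from these (chr12:3808580-3809028). It was positive in 3 ES replicates with 9 listings in Low, Medium and High, and was also in the Negative libraries of ES replicates 1, 2 and 3. Its pDONR lists held 29 fragments from ES, 75 from HB, 44 from HE1, 35 from HE2 and 56 from HP. Its absence from the later positive gates was set by the choice, and 0 of the later Negative libraries listed it. Whether the later cells carried these fragments was not tested. The site nearest Sall1, a zinc finger factor, had 22 fragments from ES, 17 each from HB and HE1 and 7 each from HE2 and HP.

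**Figure D5:**
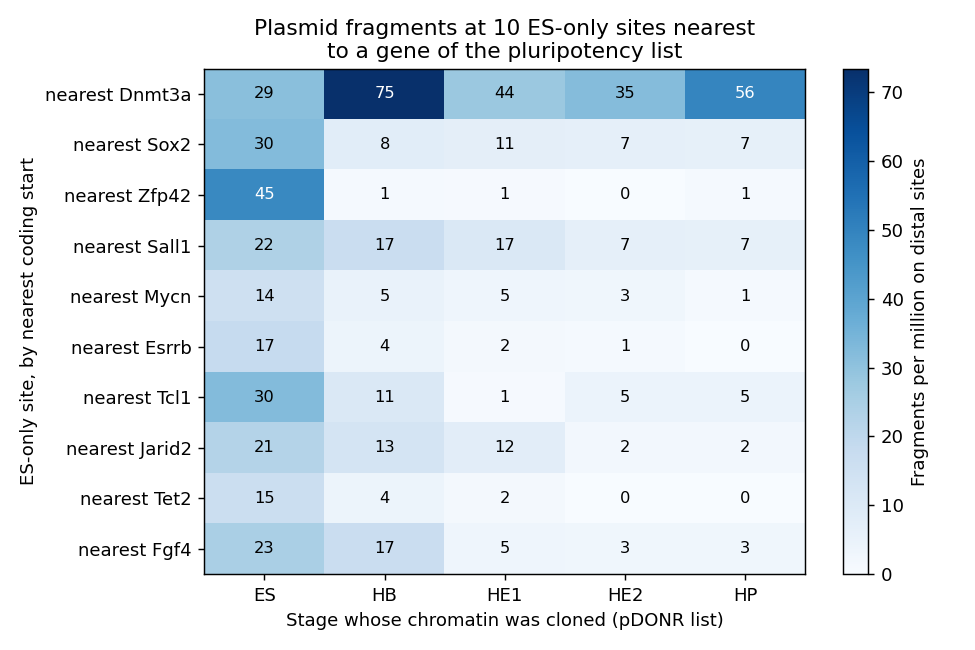
Fragments in the pDONR lists (numbers in the cells) by the stage whose chromatin was cloned (horizontal axis), for the 10 ES-only sites named by nearest pluripotency gene (vertical axis), with colour as fragments per 1000000 on distal sites. The site nearest Zfp42 has 45 fragments from ES and 0 or 1 later, whereas that nearest Dnmt3a has 29 from ES and 35 to 75 later.

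The 10 ES-only sites with the most positive ES replicates were each positive in 4. They were led by wide sites in exons, such as that nearest Abr (chr11:76621931-76622723, 793 bp, 13 bp from a GENCODE start). It had 11 listings of 8 distinct fragments in 6 positive libraries and 55 to 100 pDONR fragments in each stage. The site nearest Ezh1, a Polycomb methyltransferase, had 9 listings of 8 fragments (chr11:101191207-101191846). That nearest Actg1, which encodes gamma-actin, had 8 listings of 8 fragments and 95 to 261 pDONR fragments per stage (chr11:120350155-120350896). The site nearest Rimbp3 had 11 listings of 7 fragments in a coding exon (chr16:17209939-17210816). These 4 were in at least 1 ES Negative library and in no later one.

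Among the same 10, the site nearest Spry2, an inhibitor of FGF signalling, had the most listings, 12 of 5 fragments in 8 positive libraries (chr14:105920589-105921209, 24080 bp upstream). It had 64 pDONR fragments from ES, 56 from HB and 16 to 26 from the later stages. The sites nearest Col9a3, a collagen chain, and Lrrc8c, a subunit of an anion channel, had 4 listings of 4 fragments and 8 of 4. The sites nearest Cbfa2t3, a corepressor of blood genes, Gm11361 and Cdh5 had 3, 3 and 2 distinct fragments. Of these, the site nearest Gm11361, 113580 bp from the start, had 39 pDONR fragments from ES and 1 to 10 later.

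Of the sites nearest to genes of the other lists, up to 3 per list were named by rule. The site nearest Foxa2, an endoderm factor, was 5881 bp downstream of the start (chr2:148039372-148039793), with 9 listings of 6 fragments in 3 ES replicates and 22 to 44 pDONR fragments per stage. A second was 67822 bp upstream, with 3 listings. The site nearest Tbx20, a heart factor, had 6 listings in Low, Medium and High of replicates 1 and 2. The site nearest Meis1, a homeobox factor of blood stem cells, lay 55451 bp upstream (chr11:19074348-19074523) and was positive in High replicates 2 and 3, with 42 pDONR fragments from ES, 4 from HB, 1 from HE2 and 0 from HE1 and HP. That nearest Gata2, a blood and endothelial factor, had 2 listings and 16 fragments from ES against 2 to 6 later. Near Zfpm1, the GATA1 cofactor, 2 sites 9522 bp upstream and 9891 bp downstream of a start had 6 and 4 listings. The site nearest Cdh5, for VE-cadherin, that was not among the 10 was 61803 bp upstream, with 3 listings.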

How the data were processed

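Sorted libraries, plasmid lists and HM-1 control lists were taken as the authors deposited them. The authors used TrimGalore for trimming and Bowtie2 for mapping to mm10, filtered on mapping quality, turned read pairs into intervals and removed duplicates. They then filtered sorted fragments by HM-1 controls, plasmid lists and open chromatin peaks, and split them into distal and promoter lists. Sorted lists hold intervals without read numbers, whereas the plasmid and control lists were deposited by the authors with read counts that were not normalized. Fragments, not reads, were counted here in every list.

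Starts of sorted fragments were moved by 1 bp to match the plasmid lists. At ES-only sites 0.881% were identical to a plasmid fragment before the move, and 90.4% to a plasmid or HM-1 control fragment after it. Distal fragments overlapping by at least 1 bp were merged. Means of 5 replicates were compared by exact two-sided permutation tests, adjusted by Benjamini-Hochberg over 4 stages, at a threshold of 0.05. The tests and the site rule were checked on simulated data. Sites were annotated with GENCODE vM21. Named sites were the 10 with the most positive ES replicates (ties by distinct fragments, then position), up to 10 nearest a pluripotency gene and up to 3 nearest a gene of each other list. The sites, gene lists and motifs were chosen with earlier results of these data known. Intervals cover counting error only. Alternatives are given in the closing section. Python 3.11.15, numpy 2.4.6, pandas 2.3.3 and pysam 0.24.0 were used.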

Additional observations from a re-analysis of the deposited data

Results flagged for a closer look

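Among 13 groups of 5 replicates, 1 held a sample apart from the others by Dixon's criterion, and chance alone marks about 1 in 20 groups. The held-out share of positive HP fragments at ES-only sites was 0.105% in replicate 1 (69 of 66007 fragments), against 0.0273% in replicate 2 and 0% in replicates 3 to 5. Replicate 1 had the longest HP list, and the part of list length in this value was not tested.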

How the results depend on the processing

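Differences are in percentage points, and p-values are from the exact permutation tests. Of 158 test results under alternatives, 152 kept their sign. In Negative lists, the differences of ES from HB, HE1, HE2 and HP were 0.17, 0.18, 0.17 and 0.18 where at least 3 positive ES replicates were asked for (153 sites, adjusted p = 0.167 for each in the exact permutation test), the held-out differences were 0.386, 0.387, 0.389 and 0.388, and the gate difference turned to -0.067. Leaving out 1 replicate at a time gave -0.11 to 1.48 for HB, 0.32 to 1.66 for HE1, 0.33 to 1.65 for HE2 and 0.22 to 1.65 for HP. The held-out difference of ES from HB ran from 0.73 to 1.55, that of the gates from -0.16 to 0.89, with the sign turned without replicate 2, and that of positive from Negative ES lists from -0.057 to 0.25. The number of ES-only sites ran from 376 to 1173, with 409 without replicate 1. In each of these the cause was not tested, except that fewer sites were left to measure.

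With sites chosen in replicates 1 and 2 and measured in 3 to 5, the held-out differences were 1.63, 1.69, 1.696 and 1.71 (exact permutation test, p = 0.1, the smallest that 3 against 3 can give), and that of positive from Negative ES lists was -0.10. With sites chosen without the measured replicate, chosen after seeing the data, the Negative differences were 0.86 to 1.03, with adjusted p = 0.00794 in the exact permutation test, and the gate difference was -0.029. With all Negative fragments kept the Negative differences were 2.87 to 2.99, and with those identical to a positive fragment of any stage left out 2.27 to 2.53, with the same adjusted p in the exact test.

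Same-numbered sets did not deviate together in all replicates, with none of the 10 comparisons above 0.1 throughout. The lowest correlations over sites were -0.01 to 0.06 and the highest 0.087 to 0.25. In the Negative lists of ES and HE2, alone among the 10, every replicate correlated best with its own number. The numbers were not taken as pairs in the main tests, although this check does not exclude a weak pairing. With the replicate block, the paired differences were 1.29, 1.52, 1.504 and 1.503 in Negative lists and 1.81, 1.88, 1.89 and 1.89 in held-out positive lists, each with p = 0.0625 by exact sign flips, the smallest that 5 pairs can give. The paired difference of the high from the Low gate, with sites chosen in all replicates, was 0.39 (exact sign flips, p = 0.625). That of held-out positive from Negative ES lists was 0.20 (exact sign flips, p = 0.25). All other alternatives kept each result on its side of the threshold. The lists give distinct fragments without reads, which limits precision.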

Other observations

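Lists outside the comparisons also touched ES-only sites. HM-1 control list 1 held 0 fragments at them, list 2 held 22 and list 3 held 9. These were 0 of 25, 22 of 1690 (1.30%) and 9 of 175 (5.14%) control fragments on distal sites, of which 2.03% were ES-only sites. The promoter lists of positive cells overlapped 7 ES-only sites in ES, 4 in HB, 2 in HE1 and 3 each in HE2 and HP, counts that were not set against all sites.

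Of the ES-only sites, 108 (9.03%) had another within 25 kb, a share not compared with other sets. They had 1056 different nearest genes, 931 of them nearest to a single site. Zfp281, which encodes a zinc finger factor of ES cells, was nearest to the most, 4 of its 20 distal sites; it was singled out after its values were seen. Chromosome 11 held 145 ES-only sites (2.55% of its distal sites), chromosome 8 held 93 (2.68%) and chromosome X held 11 (1.29%), against 2.03% of all distal sites. Chromosome 14 held 28 (1.27%) and chromosome Y held 1 of its 9 distal sites (11.1%). No chromosome was named in advance.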
